A study of Homo sapiens with 3 samples.

Results

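The HOX genes were followed here through cells induced toward melanocytes. Of the 36601 genes in the gene list, 39 bore a HOXA, HOXB, HOXC or HOXD symbol with a paralog number between 1 and 13, and 38 of these are described, whether or not they were detected. Their levels were taken from 3 single-cell libraries, harvested on day 23 (D23), day 32 (D32) and day 44 (D44) of a suspension induction of human pluripotent stem cells. D23 came from an induction and a sequencing run of its own, while D32 and D44 shared both, so day and batch cannot be told apart between D23 and the other libraries. Each day was 1 library, and undifferentiated cells were not analysed here. The titles name induced pluripotent stem cells as the source, whereas other fields give H9, which is a line of embryonic origin, and the libraries were therefore told apart by day alone. Cells were assigned to classes by marker UMIs, none of them from a HOX gene: melanocyte-like cells by pigment genes such as PMEL and DCT, mesenchymal cells by collagens and small matrix proteoglycans, neural crest-like cells by ZIC1, ZIC2, MSX2 and NEFM, and neural tube-like cells by neuronal genes such as DCX. The classes are named by these markers and not by lineage.

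HOX genes encode homeodomain transcription factors that lie in 4 clusters, and their order along a cluster matches the order in which they are used along the body axis. Low-numbered paralog groups are expressed in the hindbrain and the neural crest leaving it, middle groups in cervical and thoracic tissue, and the highest groups in lumbosacral tissue and the outer limb. Neural crest of the forebrain and midbrain carries no HOX expression, and pigment cells arise from crest of the head as well as of the trunk.

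The region before the start of 3 members is shown because the results below turn on them: HOXA10 and HOXA13, which lead the posterior HOXA genes of the mesenchymal cells, and HOXC4, the most anterior of the HOXC genes found in melanocyte-like cells. Each is the 250 bases upstream of the annotated start, 5′ to 3′ on the gene's strand, from RefSeq on GRCh38.p14, and capitals mark GC boxes (GGGCGG) and CCAAT boxes (CCAAT) on either strand. HOXA10 lies at chr7:27179862-27180111 and HOXA13 at chr7:27200092-27200341, both on the minus strand, and HOXC4 at chr12:54016638-54016887 on the plus strand.
HOXA10: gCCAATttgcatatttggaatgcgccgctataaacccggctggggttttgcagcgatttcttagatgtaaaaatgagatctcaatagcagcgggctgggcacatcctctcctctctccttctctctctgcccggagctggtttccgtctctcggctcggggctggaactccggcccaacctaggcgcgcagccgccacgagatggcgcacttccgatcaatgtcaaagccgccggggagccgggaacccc
HOXA13: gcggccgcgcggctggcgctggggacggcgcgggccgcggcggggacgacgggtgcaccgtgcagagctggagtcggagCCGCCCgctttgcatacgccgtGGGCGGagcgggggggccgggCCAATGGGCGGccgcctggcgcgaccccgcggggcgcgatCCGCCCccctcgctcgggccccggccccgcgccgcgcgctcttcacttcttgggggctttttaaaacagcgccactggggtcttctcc
HOXC4: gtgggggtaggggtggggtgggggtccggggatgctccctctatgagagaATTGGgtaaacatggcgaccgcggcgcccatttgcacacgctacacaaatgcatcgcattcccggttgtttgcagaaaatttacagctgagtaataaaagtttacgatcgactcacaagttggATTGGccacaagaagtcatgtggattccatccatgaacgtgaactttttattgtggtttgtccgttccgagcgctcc
The HOXA13 window was the richest of the 3 in G and C, at 78%, against 58.8% for HOXA10 and 50.8% for HOXC4. It held 4 GC boxes and 1 CCAAT box, 1 GC box directly following the CCAAT box, while the HOXA10 window held 1 CCAAT box and the HOXC4 window 2. With a start shared by several genes counted once, 19 of the 38 members had an entry in the RefSeq promoter table, with 26 entries in all. The HOXC4 start is also the one listed for HOXC5, which is not counted apart. No HOXB gene but HOXB1 and no HOXC gene but HOXC4 is counted among the 19. A CCAAT box stood in 17 of these 26 entries and in 32.0% of all 34943 promoters, and a GC box in 13 of 26 and in 42.5% of all. The retinoid receptor half-site AGGTCA was in 0 of 26 member entries and in 12.1% of all promoters. TGATNNAT, a word bound by HOX proteins with their partners, and TTTATG, a word of posterior HOX and CDX proteins, were in 3 member entries each and in 6.49% and 9.66% of all promoters. These matches describe the letters of the windows only.

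The 3 libraries held 53298735, 268339312 and 280879346 UMIs, and 15630 cells passed the study's filters on genes, UMIs and mitochondrial share. Melanocyte-like cells numbered 1857, 5389 and 5727 at D23, D32 and D44, mesenchymal cells 557, 311 and 20, and neural crest-like cells 69, 43 and 1. A neural tube-like class of 204 cells was present at D23 alone in numbers above 10, and 1109, 275 and 63 cells fell in no class. Of these, 726, 232 and 27 passed the melanocyte threshold, and 661, 226 and 25 of those also held mesenchymal markers at or above the limit for melanocyte-like cells. UMIs were summed per library and class, which gave 9 sums of at least 10 cells each, and a level is given as UMIs per 1000000 UMIs of the sum (CPM). Intervals are exact 95% intervals that cover counting error only. CPM is not scaled by gene length, so it compares 1 gene between sums and not 1 gene with another. The median cell held 12574 UMIs at D23, 36375 at D32 and 42940 at D44.

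Markers left out of the gates were read as a check on the class names. All 8 held-out melanocyte genes tested, SOX10 and EDNRB among them, were higher in melanocyte-like than in mesenchymal cells, and 7 of 8 held-out mesenchymal genes were lower. For the neural crest-like cells the held-out list was divided: in melanocyte-like relative to neural crest-like cells 4 of its 8 genes were higher, including TFAP2A and SNAI2, and 3 were lower, MSX1 and CDH2 among them. Between mesenchymal and neural crest-like cells 0 of the 8 were called. The list summed to 1010 and 695 CPM in mesenchymal and 811 and 515 CPM in neural crest-like cells at D23 and D32. SOX2, a held-out neural tube gene, was higher in neural crest-like than in melanocyte-like and mesenchymal cells. The neural crest-like name therefore rests on ZIC, MSX and neurofilament genes. At D23 the mesenchymal and neural crest-like classes were not cleanly apart, since the 4 neural crest gate genes summed to 1132 CPM in the mesenchymal and 2291 CPM in the neural crest-like cells, against 13.8 CPM in melanocyte-like cells. Of other cell types, the glial genes ERBB3 and S100B were higher in melanocyte-like than in mesenchymal cells, and the glial list summed to between 1153 and 1448 CPM in melanocyte-like cells and between 68.2 and 163 CPM in mesenchymal cells. Muscle genes summed to at most 0.467 CPM in melanocyte-like cells and 60.5 CPM in mesenchymal cells, and epithelial genes to at most 10.1 CPM in melanocyte-like and 8.15 CPM in mesenchymal cells. Their part in the HOX values was not tested. Cell barcodes shared between 2 libraries numbered 9 to 28.

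The 3 classes differed in how much HOX RNA they held and in which part of the HOX series it came from. Melanocyte-like cells had the least in every library, with 27.9, 63.9 and 79.4 CPM over all members at D23, D32 and D44. Mesenchymal cells had 108.6, 341 and 183 CPM, neural crest-like cells 215 and 252 CPM at D23 and D32, and neural tube-like cells 1088 CPM at D23. At D23 neural crest-like cells were above mesenchymal cells, and at D32 below them. Fewer expressing cells and less HOX RNA in each cell give the same sum, and they are separated by the counts per cell below.

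The balance along the axis also differed. Groups 1 to 3, 4 to 8 and 9 to 13 hold 7, 15 and 16 members. In melanocyte-like cells the middle paralog groups, 4 to 8, held the largest share of HOX UMIs in each library, 44.8%, 59.8% and 62.2% at D23, D32 and D44. Of their 147, 3517 and 5126 UMIs of groups 9 to 13, HOXC9, a thoracic gene, gave 125, 2719 and 4690. In neural crest-like cells groups 1 to 3 held 93.0% at D23 and 59.1% at D32, and in neural tube-like cells they held 91.3%. Mesenchymal cells changed their leading band with the library: groups 1 to 3 led at D23 with 56.8%, groups 9 to 13 at D32 with 69.0%, and at D44, where the class had 125 HOX UMIs in 20 cells, these bands held 38.4% and 42.4%. By cluster, HOXC genes held 40.1%, 58.9% and 60.2% of the HOX UMIs of melanocyte-like cells, against 9.58%, 2.72% and 3.20% in mesenchymal cells. HOXA genes ran the other way, at 6.01%, 2.63% and 0.478% in melanocyte-like cells and 31.6%, 63.4% and 39.2% in mesenchymal cells. HOXB genes held 53.6%, 37.2% and 37.5% in melanocyte-like cells, so they led at D23, and 58.3%, 30.6% and 57.6% in mesenchymal cells.

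**Figure D1:**
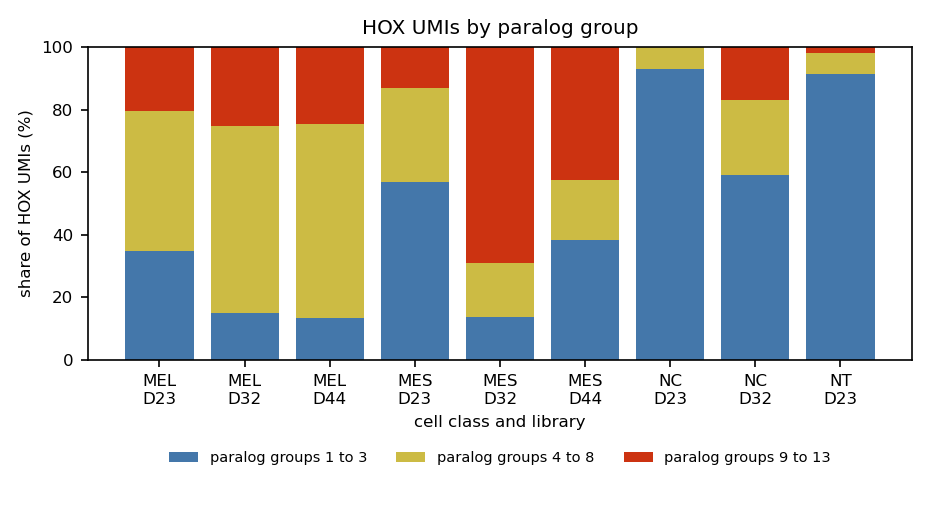
Share of HOX UMIs (percent, vertical axis) held by paralog groups 1 to 3, 4 to 8 and 9 to 13 in each of the 9 sums of a library and a class (MEL, melanocyte-like; MES, mesenchymal; NC, neural crest-like; NT, neural tube-like). Groups 4 to 8 lead in the 3 melanocyte-like bars, groups 1 to 3 in the neural crest-like and neural tube-like bars, and groups 9 to 13 reach 69.0% in the D32 mesenchymal bar.

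The anterior genes came first in the neural classes. HOXB2, which patterns the hindbrain and its crest, had 7.47, 8.44 and 8.37 CPM in melanocyte-like cells, against 26.0, 36.0 and 60.2 CPM in mesenchymal cells, 126 and 104 CPM in neural crest-like cells at D23 and D32, and 653 CPM in neural tube-like cells. The 3 melanocyte-like values of HOXB2 lay within 1 CPM of each other and below every other sum. HOXB2 was lower in melanocyte-like than in mesenchymal cells (log2 fold change -2.10, SE 0.23, edgeR adjusted p = 0.000242) and than in neural crest-like cells (-3.74, SE 0.27, edgeR adjusted p = 4.91e-05), and lower in mesenchymal than in neural crest-like cells (-1.64, SE 0.27, edgeR adjusted p = 0.0235). The last of these calls was lost with no replicate block, with 10% free RNA taken off, and when COL1A2 was left out of the mesenchymal gate, a setting chosen after seeing the data. That gate also put HOXB2 in D23 neural crest-like cells at 49.5 CPM in place of 126.

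HOXA3, a gene of the posterior hindbrain and pharyngeal arches, was close to absent from melanocyte-like cells. It had 0.0389, 0.0184 and 0.00380 CPM there, resting on 1, 4 and 1 UMIs, against 14.96, 1.12 and 1.47 CPM in mesenchymal cells, 18.9 and 8.91 CPM in neural crest-like cells and 139 CPM in neural tube-like cells. The fitted difference was -7.09 (SE 0.66, edgeR adjusted p = 0.000107) to mesenchymal and -8.20 (SE 0.80, edgeR adjusted p = 0.000216) to neural crest-like cells. HOXA2, the most anterior of the described HOXA genes, which in mice sets the identity of the second arch, had 1.01, 0.0229 and 0 CPM in melanocyte-like cells, 6.24, 0.750 and 0 CPM in mesenchymal cells, 23.9 and 10.9 CPM in neural crest-like cells and 102 CPM in neural tube-like cells. It was lower in melanocyte-like than in mesenchymal (-3.32, SE 0.77, edgeR adjusted p = 0.0164) and neural crest-like cells (-5.93, SE 0.87, edgeR adjusted p = 0.00299). With no replicate block neither HOXA2 call was made, and the call to mesenchymal cells was also lost with doubled gates and with COL1A2 out of the gate. Doubled gates have doubled upper limits on other markers too, so they are not stricter gates. Both genes stood highest in the neural tube-like cells. HOXB3, at 1.13, 1.04 and 2.02 CPM in melanocyte-like cells, 14.3, 8.25 and 8.81 CPM in mesenchymal cells, 25.2 and 24.8 CPM in neural crest-like cells and 88.5 CPM in neural tube-like cells, kept the same order of classes at each day (-2.94 to mesenchymal and -4.12 to neural crest-like cells, edgeR adjusted p = 0.000349 and 0.000297). HOXB1, which marks rhombomere 4 of the hindbrain, was seen in 17 UMIs in all, each of them at D23. It had 6.30 CPM in D23 neural crest-like cells, 8.69 CPM in neural tube-like cells and 0.130 CPM in D23 mesenchymal cells. No melanocyte-like sum held a UMI, which at D23 allows up to 0.117 CPM.

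Posterior HOXA genes were highest in the mesenchymal cells of D32, and at D44 they rested on 45 UMIs in 20 cells, of which 11 cells had none and 1 had 16. HOXA13, used at the tip of the limb and the end of the gut, had 0, 0.142 and 0 CPM in melanocyte-like cells, against 0, 57.4 and 13.2 CPM in mesenchymal cells (0, 613 and 9 UMIs), and no UMI in neural crest-like or neural tube-like cells. With called doublets left out the D32 melanocyte-like level was 0.0763 CPM, from 15 of the 31 UMIs. HOXA10, a gene of the lumbosacral axis and proximal limb, had 0, 0.606 and 0.118 CPM in melanocyte-like cells, 0.910, 111 and 42.6 CPM in mesenchymal cells, 0 and 0.990 CPM in neural crest-like cells and 0 CPM in neural tube-like cells. Among the 9 sums both exceeded 1 CPM in mesenchymal cells of D32 and D44 alone. HOXA11, which patterns the middle segment of the limb, had at most 0.0367 CPM in melanocyte-like cells, against 0, 20.8 and 2.94 CPM in mesenchymal cells (-8.89, SE 0.81, edgeR adjusted p = 0.000341). HOXA9, the most anterior of this set, had 0.467, 0.707 and 0.159 CPM in melanocyte-like cells, 5.20, 22.1 and 7.34 CPM in mesenchymal cells, 0 and 8.91 CPM in neural crest-like cells and 1.58 CPM in neural tube-like cells, and it was lower in melanocyte-like than in mesenchymal cells (-4.51, SE 0.57, edgeR adjusted p = 0.000576). In D32 neural crest-like cells the 10 UMIs of HOXA9 to HOXA13 came from 2 of 43 cells, 8 of them from 1 cell.

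HOXA10 and HOXA13 were lower in melanocyte-like than in mesenchymal cells, by -7.73 (SE 0.34, edgeR adjusted p = 2.99e-06) and -9.13 (SE 0.85, edgeR adjusted p = 0.000378) on the log2 scale. HOXA10 was the sole member called higher in mesenchymal than in neural crest-like cells (7.19, SE 0.67, edgeR adjusted p = 0.00390), and its level in neural crest-like cells rests on 1 UMI: at D32 the ratio of mesenchymal to neural crest-like CPM was 112, with a counting interval of 20.1 to 4436. HOXA13, with no UMI in any neural crest-like cell, was at least 19.6-fold higher in mesenchymal cells over the libraries, counted against 3 UMIs over the neural crest-like class, and its edgeR adjusted p was 0.0622. The HOXA10 call to neural crest-like cells was lost without D32, with no replicate block and with 10% free RNA taken off. The HOXA11 and HOXA13 calls to mesenchymal cells were not made without D32 or by DESeq2 (adjusted p = 0.0929 and 0.0531). At D32 the posterior HOXA levels of melanocyte-like cells had a median of 0.396% of the mesenchymal levels. The mesenchymal gate genes had 0.287%, but the gates themselves hold them low in melanocyte-like cells, so this is no gauge of free RNA. Held-out mesenchymal genes summed to 195 CPM in melanocyte-like and 1575 CPM in mesenchymal cells at D32. Whether the melanocyte-like HOXA UMIs are free RNA from mesenchymal cells was not tested.

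The mesenchymal cells of D32 differed among themselves. Of 311 cells, 66 (21.2%) had no UMI of HOXA9 to HOXA13, while 207 (66.6%) had 4 or more, with 3 cells at 1 UMI and 35 at 2 or 3. At D23 538 of 557 mesenchymal cells had none. With every D32 cell thinned to 5000 UMIs, 172 cells held such a UMI and 139 did not. PITX1, a factor of the hindlimb, had 319 CPM in the cells with and 210.1 CPM in the cells without a posterior HOXA UMI. ZIC1, a neural crest and dorsal neural gene, had 3.49 CPM (0.719 to 10.2) in the cells with and 79.1 CPM (59.6 to 103) in the cells without. ZIC1 is a gate gene of another class, and the 2 sets of cells were made from the HOX UMIs after these were seen, so the values are a description.

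HOXC genes held the largest share of HOX UMIs in melanocyte-like cells of D32 and D44, and came after HOXB at D23. HOXC9, a thoracic gene, had 4.87, 12.5 and 17.8 CPM in melanocyte-like cells, against 3.64, 2.53 and 0 CPM in mesenchymal cells and 0 and 3.96 CPM in neural crest-like cells. HOXC8, whose mouse counterpart patterns thoracic vertebrae, had 3.15, 9.45 and 13.3 CPM in melanocyte-like cells, 2.60, 1.59 and 2.94 CPM in mesenchymal cells and 1.26 and 5.94 CPM in neural crest-like cells. At D32 and D44 the melanocyte-like value was above every other value of that day for both genes, and at D23 the mesenchymal values were close to it. HOXC6, another gene of the cervical to thoracic range, had 1.71, 8.29 and 8.27 CPM in melanocyte-like cells, 2.99, 2.91 and 0 CPM in mesenchymal cells and 3.78 and 3.96 CPM in neural crest-like cells. HOXC4, the most anterior gene of its cluster, had 1.36, 4.89 and 6.104 CPM in melanocyte-like cells, 0.910, 0.469 and 0 CPM in mesenchymal cells, no UMI in neural crest-like cells and 1.58 CPM in neural tube-like cells. The HOXC UMIs of neural crest-like cells came from few cells, 4 UMIs from 1 of 69 cells at D23 and 17 from 3 of 43 at D32. HOXC4, HOXC6 and HOXC9 share exon sequence with other members in the GENCODE annotation, so reads may be divided among them.

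None of the 4 passed the test over the 3 libraries. Their differences from mesenchymal cells were 2.35 for HOXC4 (SE 0.75, edgeR adjusted p = 0.0583), 1.65 for HOXC8 (SE 0.53, edgeR adjusted p = 0.0527), 1.82 for HOXC9 (SE 0.63, edgeR adjusted p = 0.0703) and 0.98 for HOXC6 (SE 0.67, edgeR adjusted p = 0.350). Within the shared batch, with D23 left out, all 4 were called higher in melanocyte-like cells. That fit had 5 sums and 1 residual degree of freedom, and its libraries shared an induction. Its D44 mesenchymal sum held 2 UMIs of HOXC4 to HOXC9 in 20 cells. With halved gate thresholds 2 of the 4 genes passed, with no filter on low counts 3, and with 1 cell filter for all libraries 1. HOXC levels in mesenchymal cells had a median of 78.7%, 20.3% and 0% of those in melanocyte-like cells at D23, D32 and D44. The melanocyte gate genes had medians of 1.69%, 0.998% and 1.64%, but the gates themselves hold them low in mesenchymal cells. Held-out melanocyte genes summed to 63.0, 42.5 and 35.2 CPM in mesenchymal and 942, 1431 and 1508 CPM in melanocyte-like cells.

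HOXB genes of the middle groups were held by all classes. HOXB7, a thoracic gene, had 4.05, 10.2 and 13.1 CPM in melanocyte-like cells, 5.85, 23.4 and 8.81 CPM in mesenchymal cells, 3.78 and 13.9 CPM in neural crest-like cells and 12.6 CPM in neural tube-like cells, and the classes overlapped (melanocyte-like over mesenchymal -0.47, SE 0.34, edgeR adjusted p = 0.385). HOXB9, which follows it in the cluster, had 0.389, 0.468 and 0.0683 CPM in melanocyte-like cells, 4.29, 10.2 and 8.81 CPM in mesenchymal cells, 0 and 25.7 CPM in neural crest-like cells and 20.5 CPM in neural tube-like cells. It was lower in melanocyte-like than in mesenchymal cells (-4.65, SE 0.83, edgeR adjusted p = 0.00362) and than in neural crest-like cells (-4.77, SE 1.01, edgeR adjusted p = 0.0129), the second call resting on D32 since the neural crest-like cells of D23 held no HOXB9 UMI. HOXB8, which lies between them, was lower in melanocyte-like cells as well, at 0.895, 0.353 and 0.156 CPM, against 5.72, 7.40 and 5.87 CPM in mesenchymal and 1.26 and 19.8 CPM in neural crest-like cells (-3.75 and -4.11, edgeR adjusted p = 0.00720 and 0.0197). The call of HOXB8 to neural crest-like cells was lost without D32, at -0.81, with doubled gates and with COL1A2 out of the gate. HOXB4, a cervical gene that shares exon sequence with other HOXB genes, had 0.156, 1.35 and 3.66 CPM in melanocyte-like, 1.43, 3.28 and 4.403 CPM in mesenchymal and 1.26 and 3.96 CPM in neural crest-like cells, with no call in any comparison. HOXB5 and HOXB6, of the cervical to upper thoracic range, stayed under 2 CPM in melanocyte-like cells and reached 7.34 and 9.47 CPM in mesenchymal cells, and both were lower in melanocyte-like cells (-3.004 and -2.21, edgeR adjusted p = 0.00244 and 0.0205). Neither gene was called without D32, and HOXB6 lost its call with no replicate block and when thinned. HOXA5, a gene of the cervical and upper thoracic axis, was at most 0.124 CPM in melanocyte-like cells (-4.18 to mesenchymal cells, edgeR adjusted p = 0.00594), 3.25 CPM in mesenchymal cells, 1.26 CPM in neural crest-like cells and 9.48 CPM in neural tube-like cells.

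**Figure D2:**
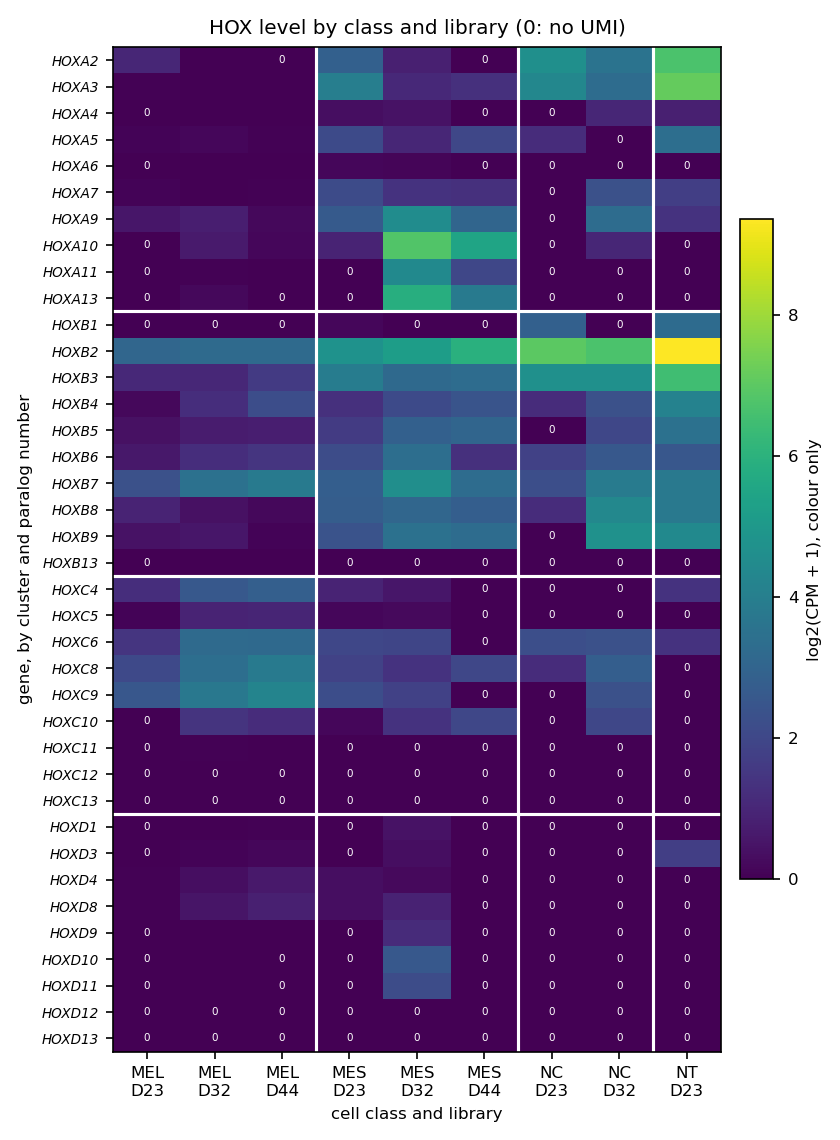
Level of each of the 38 HOX genes (rows, ordered by cluster and paralog number) in the 9 sums of a library and a class (columns), coloured by log2(CPM + 1), with 0 printed where no UMI was found (MEL, melanocyte-like; MES, mesenchymal; NC, neural crest-like; NT, neural tube-like). HOXB2 reaches 653 CPM in the neural tube-like column, HOXA10 reaches 111 CPM in the D32 mesenchymal column, and HOXC9 reaches 17.8 CPM in the D44 melanocyte-like column.

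The other 18 members stayed below 5 CPM in every sum. HOXD genes were low throughout, the highest being HOXD10 with 4.97 CPM and HOXD11 with 3.47 CPM, both genes of the lumbosacral axis and limb, in D32 mesenchymal cells. In melanocyte-like cells HOXD8 had 0.0389, 0.436 and 0.752 CPM and HOXD4 0.0389, 0.262 and 0.558 CPM at D23, D32 and D44. HOXC10, which follows HOXC9 in its cluster, had 0, 1.64 and 1.25 CPM there. HOXC12, HOXC13, HOXD12 and HOXD13 had no UMI in any of the 9 sums, which allows up to 0.0114 to 4.403 CPM depending on the sum. Across all 38, 7 members had a UMI in every sum: HOXA3, HOXB2, HOXB3, HOXB4, HOXB6, HOXB7 and HOXB8.

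Classes were compared in 1 fit of all 9 sums with the library as a block, and 25 of the 38 members passed the filter on low counts. A member that passed through 1 class alone had to differ between classes, so the counts describe the members tested. Of these 25, 16 were lower in melanocyte-like than in mesenchymal cells, where 12.8% of all 16611 genes tested were lower, and 0 were higher, where 9.63% were (edgeR; 3 were higher at an unadjusted p under 0.05, and 0 by DESeq2). The members lower were HOXA2, HOXA3, HOXA5, HOXA7, HOXA9, HOXA10, HOXA11, HOXA13, HOXB2, HOXB3, HOXB5, HOXB6, HOXB8, HOXB9, HOXD10 and HOXD11. Their median log2 fold change over the 25 was -3.004, or -3.16 with the 1 gene that had no UMI in a class left out, against 0.08 over all genes. Without D32, 10 members were lower.

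Against neural crest-like cells, 8 of 25 members were lower in melanocyte-like cells, where 8.04% of all genes were, and 0 were higher, where 8.12% were (edgeR; 1 was higher at an unadjusted p under 0.05, and 0 by DESeq2). They were HOXA2, HOXA3, HOXA7, HOXB1, HOXB2, HOXB3, HOXB8 and HOXB9, and 5 of them belong to groups 1 to 3. The median over the 25 was -1.34, or -1.77 with genes at 0 in a class set to a bound or left out, against 0.20 over all genes. Leaving out D23 or D32 leaves 1 neural crest-like sum and so no replicate of that class. Between mesenchymal and neural crest-like cells 1 member was higher, HOXA10, and 1 lower, HOXB2, where 1.14% of all genes were higher and 0.668% lower. Leaving out D44, which has no neural crest-like sum, gave 2 members higher. Scaling by total UMIs in place of TMM moved the median of all genes by -0.10, -0.24 and -0.14 in these 3 comparisons and left the member counts as they were, while over all genes it gave 793 higher and 1551 lower in melanocyte-like relative to neural crest-like cells (TMM 1348 and 1335) and 114 higher and 121 lower in mesenchymal relative to neural crest-like cells (TMM 189 and 111). The p-values measure only how far a difference recurred over these 3 libraries, which were harvested on different days. Neural crest-like sums came from D23 and D32 alone, so differences from that class could recur over these libraries at most.

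**Figure D3:**
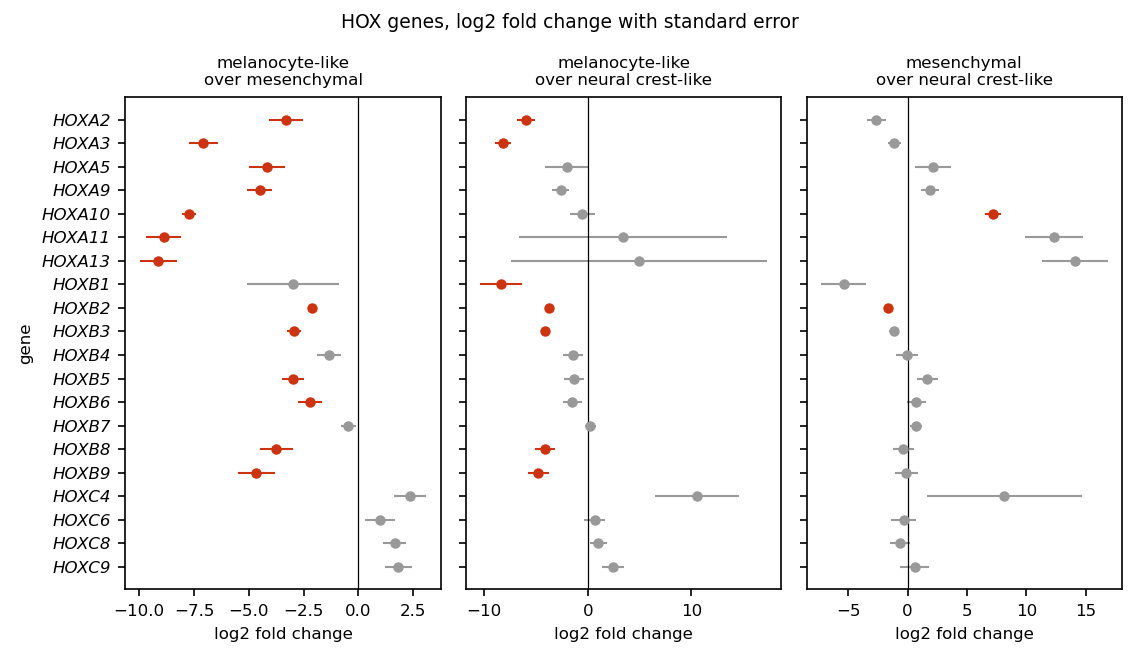
Log2 fold change (horizontal axis) with its standard error for 20 HOX genes (rows) in 3 comparisons, melanocyte-like over mesenchymal, melanocyte-like over neural crest-like and mesenchymal over neural crest-like. Red points have an edgeR adjusted p under 0.05 and grey points do not, and the long bars belong to genes with no or few UMIs in a class, whose fitted value is no bound. In the first comparison HOXA10 lies at -7.73 and HOXB2 at -2.10, both red.

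Counts per cell showed that the melanocyte-like class was not uniform in HOX RNA. The median melanocyte-like cell had 0 HOX UMIs in each library, while the mean was 0.386, 2.59 and 3.65. Cells with no HOX UMI made up 80.7%, 51.1% and 50.4% of the class at D23, D32 and D44, and cells with 4 or more made up 2.91%, 26.1% and 35.7%. Cells with 1 to 3 UMIs were fewer than either at D44, 7.68% with 1 and 6.16% with 2 or 3. Depth rose with the day, and at 5000 UMIs per cell the share with any HOX UMI was 9.48%, 20.6% and 25.1% in melanocyte-like cells (19.3%, 48.9% and 49.6% as deposited), 30.4%, 71.4% and 40.0% in mesenchymal cells (50.6%, 92.3% and 18 of 20 cells), 62.3% and 58.1% in neural crest-like cells (84.1% and 88.4%) and 94.1% in neural tube-like cells (97.5%). Thinning left out 177 of the D23 cells. A UMI of HOXC4 to HOXC9 was found in 33.9% of the D32 melanocyte-like cells and in 7.72% of the D32 mesenchymal cells, at medians of 36831 and 32155 UMIs.

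Cells holding HOXC RNA also held the HOXB genes next to it on the axis. Melanocyte-like cells with at least 2 HOXC UMIs (HOXC-positive) numbered 74, 1502 and 2079 at D23, D32 and D44, or 3.98%, 27.9% and 36.3% of the class, and cells with none (HOXC-negative) numbered 1735, 3551 and 3333. HOXB4 to HOXB9 together had 73.7, 39.5 and 46.4 CPM in HOXC-positive cells, against 2.30, 1.21 and 1.29 CPM in HOXC-negative cells. The ratios were 32.1 (22.6 to 45.8), 32.5 (27.8 to 38.3) and 36.0 (31.2 to 41.9), so the 3 libraries gave much the same value at their own depths. The few cells with a single HOXC UMI lay between, at 35.1, 17.2 and 19.5 CPM. The division was made after the counts per cell were seen and is given with no test. HOXC-positive cells were somewhat deeper, with median UMIs of 15424, 40828 and 44328 against 12937, 35016 and 42466 in HOXC-negative cells. With called doublets left out the ratios were 32.0, 33.4 and 37.5, and with all cells thinned to 5000 UMIs and divided at 1 HOXC UMI they were 21.3, 5.26 and 3.60, in the same direction.

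The members differed in how closely they followed HOXC. HOXB7 had 44.1, 28.0 and 31.3 CPM in HOXC-positive cells, against 1.59, 0.866 and 0.797 CPM in HOXC-negative cells. HOXB2 did so far less at first, with 8.48, 12.2 and 16.4 CPM in HOXC-positive cells and 7.44, 6.41 and 2.87 CPM in HOXC-negative cells, ratios of 1.14 (0.537 to 2.14), 1.90 (1.73 to 2.10) and 5.71 (5.13 to 6.36), or 0.788, 2.33 and 3.27 when thinned. At D23 HOXB2 was therefore spread over both sets of cells, and at D44 it was mostly with HOXC. HOXB3, its neighbour, gave ratios of 1.69, 5.78 and 8.17. HOXD genes, at 0 UMIs in the HOXC-negative cells of D23, had 2.19 CPM in HOXC-positive and 0.0444 CPM in HOXC-negative cells at D32 and 3.66 and 0.0938 CPM at D44. HOXA genes had 9.32, 4.04 and 0.973 CPM in HOXC-positive cells and 1.34, 0.259 and 0.00670 CPM in HOXC-negative cells, the last resting on 1 UMI.

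**Figure D4:**
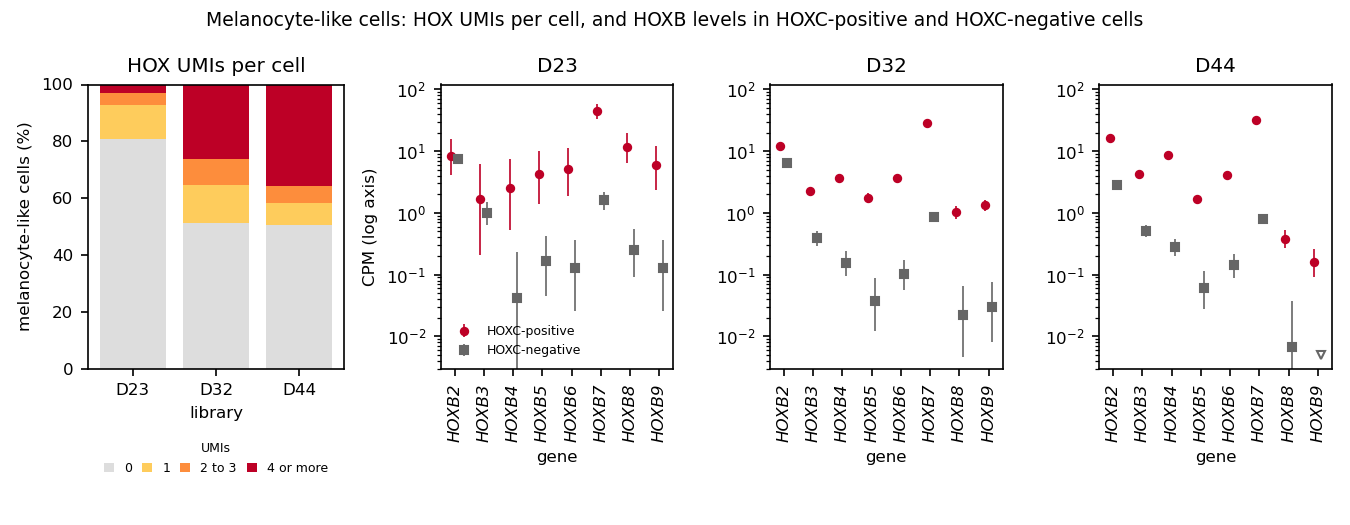
Left, share of melanocyte-like cells (percent) with 0, 1, 2 to 3 and 4 or more HOX UMIs in each library. Right, CPM on a log axis of HOXB2 to HOXB9 in HOXC-positive and HOXC-negative melanocyte-like cells of each library, with bars for exact 95% counting intervals and an open triangle where no UMI was found. HOXB7 separates in all 3 libraries (31.3 against 0.797 CPM at D44), whereas HOXB2 is close at D23 (8.48 against 7.44 CPM).

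Levels of pigment genes were set beside these. SOX10, which specifies pigment and glial cells from the crest, had 121, 89.4 and 107 CPM in HOXC-positive cells, against 118, 90.2 and 107 CPM in HOXC-negative cells. PMEL, the fibril protein of the melanosome, had 1395, 4464 and 4652 CPM in HOXC-positive cells and 1758, 5245 and 5012 CPM in HOXC-negative cells. SLC45A2, a melanosome transporter, had 5.09, 12.7 and 9.53 CPM in HOXC-positive cells and 10.9, 24.2 and 17 CPM in HOXC-negative cells. TYRP1, a melanin-synthesis enzyme, went the other way at D23, with 808 CPM in the 74 HOXC-positive and 145 CPM in the HOXC-negative cells. TYR, MLANA, DCT and MITF, and TYRP1 at D32 and D44, are not given here, so no direction is read for pigment genes as a set. Of the other held-out melanocyte genes, KIT and EDNRB had higher values in HOXC-positive cells in each library, by little at D32 and with no interval. KIT had 114, 40.7 and 36.1 CPM against 92.7, 38.9 and 32.6 CPM, and EDNRB 89.9, 151.3 and 124.8 CPM against 72.6, 150.4 and 114.3 CPM. BHLHE41 and OCA2 were lower in each library, OCA2 at D23 with 0 against 1.25 CPM. GPR143 and CAPN3 were lower at D32 and D44 and slightly higher at D23 (337 against 315 and 255 against 219 CPM). Among 9154 other genes at 10 CPM or more in any of the 6 sets of cells, 5 were higher and 2 lower by over 1 on the log2 scale (with 2 CPM added) in each. These genes were ranked after the division was made. Those higher were LINC02381, QPCT, PLAGL1, CSRP2 and RIMS2. Thinned to 5000 UMIs per cell, PLAGL1 (0.90) and CSRP2 (0.99) were under that limit at D44, and RIMS2 in all 3 libraries. LINC02381, a long noncoding RNA beyond the HOXC4 end of the HOXC cluster on chromosome 12, had 26.3, 24.5 and 20.5 CPM in HOXC-positive cells, against 0.502, 0.644 and 0.456 CPM in HOXC-negative cells. QPCT, the glutaminyl cyclase, had 65.3, 207 and 261 CPM against 7.95, 66.3 and 75.7 CPM. The 2 lower were MEIS2, a partner of HOX proteins on DNA, with 6.78, 3.17 and 2.87 CPM in HOXC-positive and 22.1, 12.6 and 13.8 CPM in HOXC-negative cells, and NR2F1, an orphan receptor used in anterior crest and brain, with 79.7, 10.5 and 8.25 CPM in HOXC-positive and 253, 25.1 and 25.6 CPM in HOXC-negative cells.

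Between days there was 1 library each and no test. In melanocyte-like cells HOXC4 to HOXC9 had 46.5 CPM at D44 and 36.0 CPM at D32, a ratio of 1.29 (1.26 to 1.33) within the shared batch, and the D32 level was 3.22 times (2.86 to 3.64) the 11.2 CPM of D23. Members moved unequally between D44 and D32: the ratio of D44 to D32 was 2.72 for HOXB4, 1.43 for HOXC9, 1.41 for HOXC8, 0.998 for HOXC6, 0.993 for HOXB2 and 0.146 for HOXB9. The posterior HOXA genes of melanocyte-like cells had 0.281 CPM at D44, against 1.49 CPM at D32. In mesenchymal cells HOXA9 to HOXA13 had 66.0 CPM at D44 in 20 cells, 211.5 CPM at D32 and 6.11 CPM at D23, so that the D32 level was 34.6 times (25.9 to 47.2) that of D23 and the D44 level 0.312 times (0.227 to 0.419) that of D32, or 0.130 times when thinned. In neural crest-like cells HOXA2, HOXA3, HOXB2 and HOXB3 together had 149 CPM at D32 and 194 CPM at D23, a ratio of 0.766 (0.607 to 0.965). That ratio turned to 1.17 with doubled gate thresholds and 1.16 with COL1A2 left out of the mesenchymal gate, so it has no fixed direction. Both settings gave a larger D23 neural crest-like class, 211 and 256 cells in place of 69.

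Genes that work with or upstream of HOX were read from lists. All 9 HOX cofactors of the list were tested. MEIS1 and MEIS2, homeodomain proteins that bind DNA with HOX proteins, were lower in melanocyte-like than in mesenchymal cells (-2.09 and -1.81, edgeR adjusted p = 0.00435 and 0.000811) and than in neural crest-like cells (-3.30 and -2.90, edgeR adjusted p = 0.00179 and 0.000232). MEIS2 had 21.1, 9.20 and 9.37 CPM in melanocyte-like cells, 74.1, 47.0 and 23.5 CPM in mesenchymal cells and 204 and 82.2 CPM in neural crest-like cells. The list's median was 0.19 to mesenchymal and -0.53 to neural crest-like cells, where those of all genes were 0.08 and 0.20. Of 20 Polycomb and Trithorax genes, which hold HOX clusters silent or active, JARID2 alone passed, higher in melanocyte-like than in mesenchymal (1.31, edgeR adjusted p = 0.00187) and neural crest-like cells (1.05, edgeR adjusted p = 0.0235), with medians over the list of 0.21 and 0.15.

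Of 21 regulators of HOX onset and retinoid handling, 18 were tested, and against mesenchymal cells 6 were lower and 1 higher in melanocyte-like cells. NR2F2, an orphan receptor, and NR2F1 were lower (-3.13 and -2.48, edgeR adjusted p = 4.41e-05 and 0.000249), as was CRABP1, which binds retinoic acid in the cytoplasm, at 22.03, 11.6 and 0.197 CPM in melanocyte-like cells, against 337, 940 and 89.5 CPM in mesenchymal and 12492 and 5965 CPM in neural crest-like cells. CDX1, which activates HOX genes of the trunk, had no UMI in melanocyte-like or neural crest-like cells and 0.780, 1.97 and 1.47 CPM in mesenchymal cells. Counted against 3 UMIs, this allows up to 0.117, 0.0138 and 0.0114 CPM in melanocyte-like cells at D23, D32 and D44. In neural crest-like cells it allows up to 3.78 and 2.97 CPM at D23 and D32, above the mesenchymal values. ALDH1A3, which makes retinoic acid, was the 1 higher (4.19, edgeR adjusted p = 0.00402). Against neural crest-like cells 5 were lower and 1, the retinoic acid receptor RARB, was higher (3.94, edgeR adjusted p = 0.00649). CYP26A1, which degrades retinoic acid, had 0.0389, 0.220 and 0.0342 CPM in melanocyte-like cells, no UMI in mesenchymal cells and 11.3 and 56.5 CPM in neural crest-like cells. The list medians were -0.47 and -0.31, or -1.70 and -1.91 with genes at 0 in a class set to a bound or left out.

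Genes of the HOX-free head were likewise low in melanocyte-like cells. Of 16 forebrain and midbrain genes 8 were tested, 7 were lower in melanocyte-like than in mesenchymal cells and 6 were lower than in neural crest-like cells, with medians of -5.79 and -5.48, the second -6.62 with genes at 0 in a class left out. PAX8 (-6.102 and -7.58), GBX2 (-7.90 and -8.50) and IRX3 (-3.39 and -5.66), genes of the brain and its borders, were lower in both comparisons as well. EN1 was found in D23 mesenchymal cells alone, at 12.5 CPM. EN2, which marks the midbrain-hindbrain border, had 0.506, 0.431 and 0.509 CPM in melanocyte-like, 0.260, 18.3 and 112 CPM in mesenchymal cells and 17.6 and 111 CPM in neural crest-like cells. OTX2, of the forebrain and midbrain and named here after its values were seen, was found at D23 alone, with 0.117 CPM in melanocyte-like, 9.88 CPM in mesenchymal and 6.30 CPM in neural crest-like cells. Of 10 limb genes 8 were tested and 7 were lower in melanocyte-like than in mesenchymal cells, with a median of -5.70. PITX1 had 0, 0.789 and 0.0190 CPM in melanocyte-like cells and 0, 303 and 189 CPM in mesenchymal cells, which is also where HOXA13 stood. PRRX1, a factor of limb and head mesenchyme, had 1.52, 1.15 and 4.43 CPM in melanocyte-like cells and 167, 158 and 110.1 CPM in mesenchymal cells, with no such gap between D32 and D23. HAND2 and SHOX2, factors of limb and branchial mesenchyme, were lower as well (-8.80 and -6.25).

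Of 20 noncoding RNAs of the clusters, 9 were tested and 7 were lower in melanocyte-like than in mesenchymal cells, with a median of -3.96. HOTTIP, transcribed beside HOXA13, had 0, 0.0184 and 0 CPM in melanocyte-like cells and 0, 5.34 and 1.47 CPM in mesenchymal cells. HOTAIRM1, at the anterior end of the HOXA cluster, had 12.5, 0.734 and 0.175 CPM in melanocyte-like cells, 57.2, 4.97 and 5.87 CPM in mesenchymal cells, 95.8 and 28.7 CPM in neural crest-like cells and 253 CPM in neural tube-like cells. HOXD-AS2, a partner of the HOXD genes, had 3.39, 4.87 and 5.46 CPM in HOXC-positive and 0.167, 0.0740 and 0.0938 CPM in HOXC-negative melanocyte-like cells. How the counting treated strand is not given in the sources used here, so antisense RNAs and the genes they overlap cannot be fully told apart. Over the 9 sums, the genes whose log2 level ran closest to that of all HOX UMIs were TUBA1A (r = 0.973), LETM2 (0.967), RCN2 (0.962), DDAH2 (0.949) and NPTX2 (0.948), a description in which the sums share libraries and depth.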

How the data were processed

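The 3 libraries of human cells induced toward melanocytes were read from the counts the authors deposited: whole-number UMI counts per gene and barcode, made by the authors with Cell Ranger 6.1.2 on hg38, per the submitters' processing notes. The annotation release and the end of the transcript sequenced are not given in the sources used here. Barcode and gene lists in the deposited files carry identifiers and other text, and no value. The counts were not normalised or corrected before deposit.
Cells were kept by the study's filters: D23 over 1000 and under 7000 genes and under 50000 UMIs, D32 and D44 over 3000 and under 9000 genes and under 100000 UMIs, over 500 UMIs, and at most 10% mitochondrial UMIs, which left 15630 of 22522 barcodes, 3796, 6023 and 5811 per library. Gates used marker UMIs per 10000 UMIs of a cell: melanocyte-like from 10, mesenchymal from 10, neural tube-like from 5 and neural crest-like from 3, with at least 3 marker UMIs. Melanocyte-like cells had to be under 5 for each other list, and other classes under 10 for melanocyte genes, with further upper limits among themselves. Doubled and halved gates scaled the upper limits as well, giving 211 and 18 neural crest-like cells at D23 in place of 69. Doublets were called with scrublet in scanpy 1.11.5 (58, 432 and 395 cells, the last 2 at the expected share of 0.8% per 1000 barcodes) and kept.
UMIs were summed per library and class (at least 10 cells, 9 sums) and fitted with edgeR 4.0.16 by its quasi-likelihood test with TMM, filterByExpr and the library as a block, with Benjamini-Hochberg adjustment over 16611 genes at 0.05. DESeq2 1.42.0 was an alternative. Neural tube-like cells were in 1 library and were not tested against neural crest-like cells. The fit was tested on simulated data. Members with 5 CPM and 10 UMIs in a sum are named with all values. Members and lists were chosen with earlier results of these data known, and 1 of the 39 matching genes and some genes of the lists are not reported here. From each list up to 5 genes past the threshold are named, by adjusted p.
Alternatives were another tool, scaling, filters, gates, thinning to 5000 UMIs, 5% or 10% free RNA taken off, no doublets and each library left out. Leaving COL1A2 out of the mesenchymal gate and dividing melanocyte-like cells by HOXC UMIs were chosen after seeing the data. Motifs were searched on both strands in 250 bases upstream of RefSeq starts on GRCh38.p14.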

Additional observations from a re-analysis of the deposited data

Results flagged for a closer look

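Cells that met no gate were used in no comparison, and HOX RNA was found in them. Their HOX level was 95.5 CPM in the 1109 such cells of D23, 156.9 CPM in the 275 of D32 and 83.0 CPM in the 63 of D44, in each library above the melanocyte-like level (27.9, 63.9 and 79.4 CPM) and below the mesenchymal level (108.6, 341 and 183 CPM). At D23 HOXA2, HOXA3, HOXB2 and HOXB3 made up 75.5 CPM of it, at D32 HOXA9 to HOXA13 made up 74.8 CPM, and at D44 HOXC4 to HOXC9 made up 40.2 CPM. Doublets were called in 4.15%, 30.9% and 1.59% of these cells, and their part in the D32 level was not tested.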

How the results depend on the processing

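Against mesenchymal cells, HOXA3, HOXA5, HOXA9, HOXA10, HOXB2, HOXB3, HOXB8 and HOXB9 kept their call in all 15 alternatives, and against neural crest-like cells HOXA3, HOXB2 and HOXB3 did. Other named members had calls lost under 1 to 3 alternatives each, HOXA10 and HOXB2 among them in the comparison of mesenchymal with neural crest-like cells. For HOXB9 against neural crest-like cells the fitted sign turned without D32, a value that is no bound. Depth limits the neural crest-like class, with 793640 UMIs at D23 and 1009714 at D32. Where a value below moved, the cause was not tested.
Over members, melanocyte-like over mesenchymal gave 3 higher with no filter on low counts, 2 with halved gates and 1 with 1 cell filter, and 0 to 4 higher and 10 to 17 lower with a library left out. Melanocyte-like over neural crest-like gave 1 higher (HOXC4) and 5 lower with COL1A2 out of the gate, and 0 higher and 5 to 8 lower with a library left out, where HOXB9 ran between -5.89 (without D23) and 6.37 (without D32) on the log2 scale. Mesenchymal over neural crest-like gave 3 higher and 2 lower with no filter, 0 and 0 with no replicate block, 0 and 0 with 10% free RNA taken off, 2 higher with halved gates, thinning, 5% free RNA taken off, no doublets or 1 cell filter, 0 lower with COL1A2 out of the gate, and 0 to 3 higher and 1 to 1 lower with a library left out.
Over all genes, melanocyte-like over mesenchymal gave 693 higher with no replicate block, 1024 higher and 1400 lower when thinned, and 805 to 1496 higher and 1265 to 1957 lower with a library left out. Melanocyte-like over neural crest-like gave 793 higher scaled by total UMIs, 578 with no replicate block, 648 higher and 749 lower with halved gates, 749 higher and 858 lower when thinned, and 472 to 1279 higher and 667 to 1295 lower with a library left out. Mesenchymal over neural crest-like gave 365 higher and 320 lower by DESeq2, 114 higher scaled by total UMIs, 511 and 283 with no filter, 0 and 0 with no replicate block, 85 and 65 with doubled gates, 66 lower with halved gates, 112 and 58 with 5% and 38 and 29 with 10% free RNA taken off, 64 and 57 with COL1A2 out of the gate, and 77 to 466 higher and 77 to 202 lower with a library left out.
Between days, the HOXC ratio of melanocyte-like cells was 2.79 (D32 over D23) with halved gates and 1.37 (D44 over D32) when thinned, the HOXA9 to HOXA13 ratio of mesenchymal cells was 0.130 (D44 over D32) when thinned, and the anterior ratio of neural crest-like cells (D32 over D23) was 0.988 when thinned, 1.17 with doubled gates and 1.16 with COL1A2 out of the gate. The thinned ratios of HOXB4 to HOXB9 between HOXC-positive and HOXC-negative cells were 21.3, 5.26 and 3.60 at D23, D32 and D44.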
